A study of Mus musculus with 2 samples.

Results

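The glycolysis and hypoxia response genes of infarct macrophages described here are 36 mouse genes chosen by symbol. They comprise the oxygen-sensing regulators around *Hif1a*, the glucose and lactate transporters, the enzymes from hexokinase to lactate dehydrogenase, and transcripts known to respond to low oxygen. All 36 were found among the 32285 genes of the deposited tables. No threshold on their values entered the choice, which was made with earlier results of these data known.

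The values come from droplet single-cell RNA sequencing of CD45+CD11b+CD64+ mononuclear macrophages, sorted from the infarct and border zones of mouse hearts 3 days after myocardial infarction (MI). One group was wild type (WT) and the other was labelled CD40 KO, a knockout of the costimulatory receptor CD40, with 1 library each. Both groups had undergone MI, and no uninjured heart was compared. The sources used here give neither strain, age or sex nor the knockout allele, nor how many mice were pooled into a library.

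WT contributed 10624 barcodes with 139343516 UMIs (unique molecules), at a median of 9354 UMIs per barcode, and the CD40 KO-labelled library 8146 barcodes with 90057108 UMIs, at a median of 5347. After filtering, 7247 and 7406 barcodes were kept, and 13 barcode sequences occurred in both. Clustering was done without the 36 members and without the other pathway genes, so their levels placed no barcode. Of 14 clusters, clusters 1 to 5 formed a monocyte/macrophage-like class of 5155 barcodes in WT and 2301 in the CD40 KO-labelled library, with all 20 macrophage markers present and summed at 22037 and 15289 CPM (counts per 1000000 UMIs). The libraries stood apart in makeup: cluster 12, which was shallow and was left unnamed, held 4332 of the kept barcodes (58.5%) in the CD40 KO-labelled library and 15 in WT. Within the class, cluster 3 (led by *Gpnmb*, *Fabp5* and *Spp1*) held 43.5% of WT barcodes and 16.1% of the others, whereas cluster 4 (led by *Plcb1*, *Met* and *Ly6c2*) held 25.1% and 53.2%. The median mitochondrial share of a class barcode was 2.5% and 2.57%, and ribosomal protein UMIs made up 9.05% and 10.9% of the class. *Cd40* itself was at 17.5 (16.5 to 18.4) and 15.3 (14.2 to 16.5) CPM in the class, so its transcript did not check the label, and directions below compare 2 libraries under their labels.

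Glycolysis splits glucose into pyruvate in the cytosol and yields ATP without oxygen. Lactate dehydrogenase turns the pyruvate into lactate, which is exported with a proton. When oxygen is scarce, prolyl hydroxylases no longer mark the HIF-1 alpha protein for destruction, and the stabilised factor binds DNA at a short core motif and raises transcription of most glycolytic enzymes, glucose transporters and secreted factors such as VEGF-A. Infarcted myocardium loses its blood supply, and inflammatory monocytes and macrophages are known for a high rate of glycolysis.

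In the class, 30 of the 36 members were measured, that is, their mean over both libraries was at least 10 CPM. Of these, 11 were at least 1.3-fold higher in the CD40 KO-labelled library, 3 were at least 1.3-fold lower and 16 lay between. The same limits were passed by 20.2% and 10.5% of all 7582 measured genes, so the members were more often among the higher genes (36.7% of them) and about as often among the lower ones (10.0%). The median log2 ratio of the measured members was 0.23, against 0.096 for all measured genes. Scaled by the median of ratios, a choice that shifts the median gene by 0.096, 9 members were higher and 3 lower, against 13.5% and 15.6% of genes, and the members' median was 0.13. With 1 library per group there is no replicate check and no test, and the intervals given are 95% exact intervals for counting error only. The different cluster makeup of the class moves with the comparison and is taken up in the within-cluster values.

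**Figure D1:**
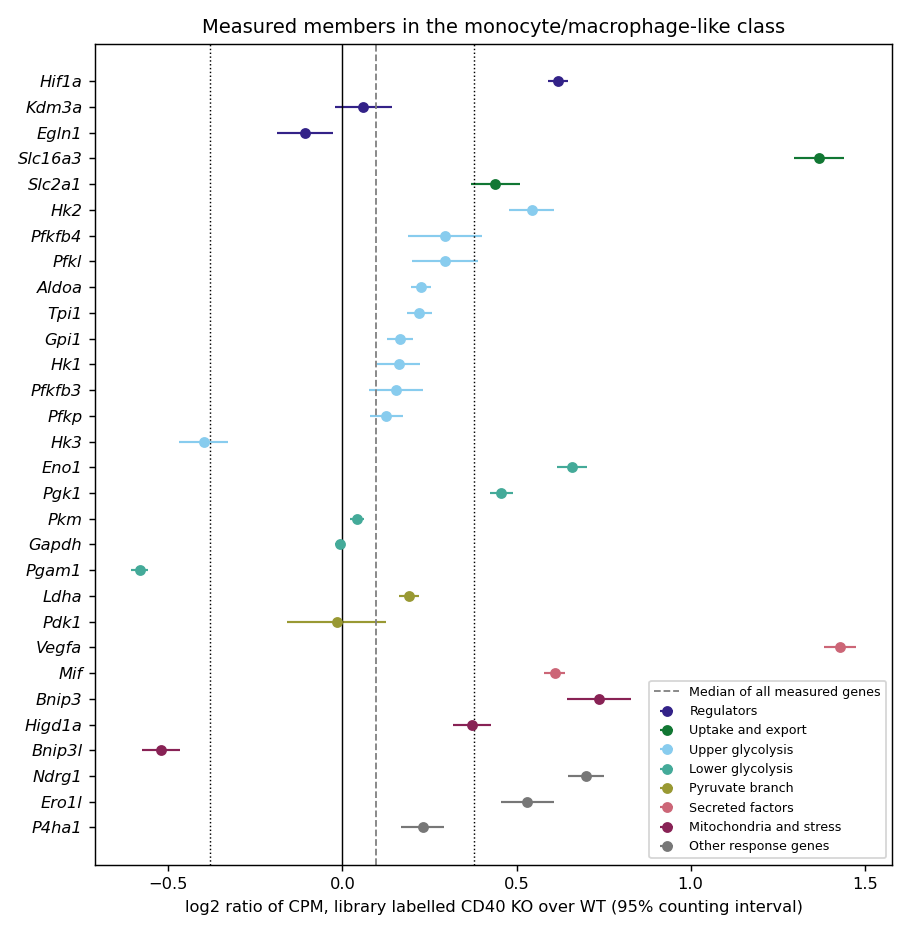
Log2 ratio of CPM, CD40 KO-labelled library over WT, for the 30 measured members in the monocyte/macrophage-like class, ordered by role, with 95% exact counting intervals. *Vegfa* at 1.43 and *Slc16a3* at 1.37 lie farthest to the right, and *Pgam1* at −0.58 farthest to the left.

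The regulators were led by *Hif1a*, which encodes the oxygen-regulated subunit of HIF-1. Its level was 259 (255 to 262) CPM in WT and 397 (392 to 403) in the CD40 KO-labelled library, a log2 ratio of 0.62 (0.59 to 0.65). It was the only one of the 3 measured regulators past the limit. *Egln1*, the main prolyl hydroxylase that marks HIF-1 alpha, stood at 46.7 and 43.4 CPM (−0.11), and *Kdm3a*, an oxygen-dependent histone demethylase, at 40.9 and 42.6 (0.06). *Egln3*, a second prolyl hydroxylase, did not reach the mean of 10 CPM, with 5.76 CPM in WT and 13.5 in the CD40 KO-labelled library, a log2 ratio of 1.23 (1.05 to 1.41). Neutrophil-like barcodes held *Egln3* at 75.6 and 80.2 CPM, and the 14 neutrophil markers summed to 149 CPM in the WT class and 174 CPM in the other. The part of neutrophil RNA in the *Egln3* difference was not tested.

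Both measured transporters were higher in the CD40 KO-labelled library. *Slc16a3*, the proton-coupled lactate exporter MCT4 (chromosome 11, 120948480 to 120960868, plus strand, mm10 with GENCODE vM21), was at 33.4 (32.2 to 34.8) CPM in WT and 86.4 (83.7 to 89.1) CPM in the CD40 KO-labelled library. This log2 ratio of 1.37 (1.3 to 1.44) was the second highest among measured members. *Slc2a1*, the widely expressed glucose transporter GLUT1, was at 48.2 and 65.3 CPM (0.44, 0.37 to 0.51), just past the limit. *Slc2a3*, the high-affinity transporter GLUT3, was scarce, at 2.85 and 4.25 CPM.

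In upper glycolysis 1 of 10 measured enzymes was higher and 1 lower, and both were hexokinases, which phosphorylate glucose on entry. *Hk2*, the inducible isoform that binds mitochondria, was at 53.8 (52.2 to 55.5) CPM in WT and 78.4 (75.9 to 81.0) CPM in the CD40 KO-labelled library, a log2 ratio of 0.54 (0.48 to 0.61). *Hk3*, an isoform typical of myeloid cells, went the other way, from 69.1 to 52.4 CPM (−0.40, −0.47 to −0.33), only just past the limit. *Hk1*, the constitutive isoform, lay between at 67.6 and 75.6 CPM. The other 7 upper enzymes lay inside the limit, with log2 ratios from 0.13 for *Pfkp*, the platelet-type phosphofructokinase, to 0.30 for *Pfkfb4*, which makes an activator of phosphofructokinase. Between them were *Pfkfb3* (0.15), with the same activity, *Gpi1*, the isomerase of glucose 6-phosphate (0.17), *Tpi1*, triosephosphate isomerase (0.22), *Aldoa*, aldolase (0.23), and *Pfkl*, the liver-type phosphofructokinase (0.29).

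The enzymes of lower glycolysis did not move as a block. *Pgk1*, which makes the first ATP of the pathway, was at 221 (218 to 224) CPM in WT and 303 (298 to 308) CPM in the CD40 KO-labelled library, a log2 ratio of 0.46. *Eno1*, enolase, was at 119 and 187 CPM (0.66, 0.62 to 0.70). Between these 2 steps of the pathway sits phosphoglycerate mutase, *Pgam1* (chromosome 19, 41911923 to 41918660, plus strand), and it was lower: 621 (616 to 627) CPM in WT and 415 (409 to 421) CPM in the CD40 KO-labelled library, a log2 ratio of −0.58 (−0.61 to −0.56). The enzymes with the most UMIs in this stretch were near level, *Gapdh* at 1351 and 1345 CPM and *Pkm*, the muscle-type pyruvate kinase, at 683 and 703 CPM. The pyruvate branch had no member past the limit. *Ldha*, lactate dehydrogenase A, was at 335 and 382 CPM (0.19), and *Pdk1*, a kinase that inhibits pyruvate dehydrogenase, at 14.2 and 14.1 CPM. Reads of *Gapdh*, *Eno1*, *Mif* and *Tpi1* are uncertain, because 78.0%, 88.4%, 41.1% and 23.7% of the 60-base windows at their 3′ ends also occur in another gene model. The copy that matches *Eno1*, *Eno1b*, was at 21.0 and 23.7 CPM.

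**Figure D2:**
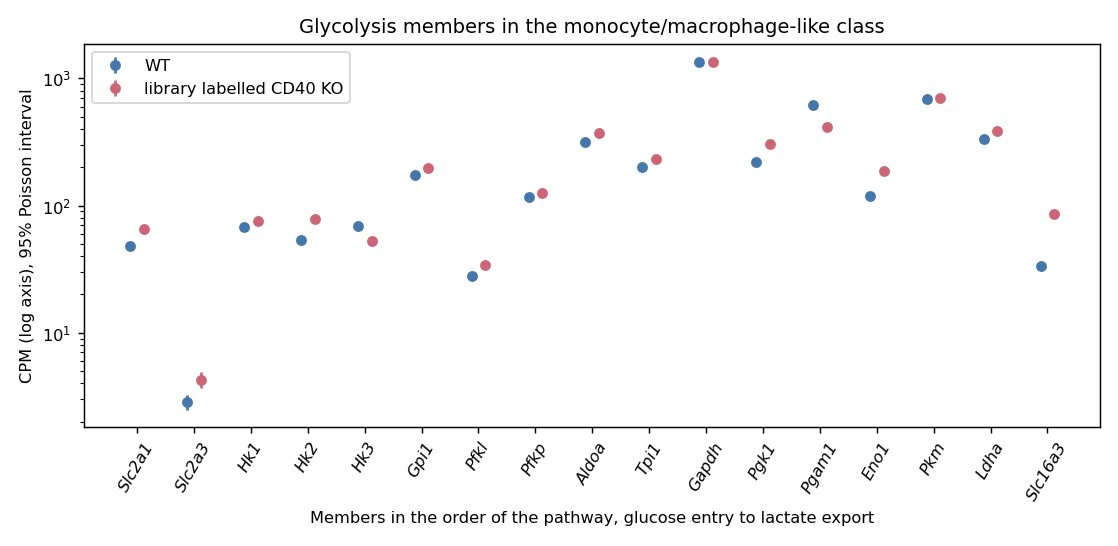
CPM of the glycolysis members in the monocyte/macrophage-like class, in the order from glucose entry to lactate export, on a log axis, for WT and the CD40 KO-labelled library, with 95% Poisson intervals. Along lower glycolysis the order of the libraries changes from *Pgk1* (221 and 303 CPM) to *Pgam1* (621 and 415 CPM) and back at *Eno1* (119 and 187 CPM).

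Both measured secreted factors were higher. *Vegfa*, the main angiogenic growth factor (chromosome 17, 46016993 to 46032369, minus strand), was at 80.3 (78.3 to 82.3) CPM in WT and 216 (212 to 220) CPM in the CD40 KO-labelled library. Its log2 ratio of 1.43 (1.38 to 1.48) was the highest of the measured members. *Mif*, a cytokine that restrains macrophage migration, was at 240 and 366 CPM (0.61, 0.58 to 0.64). *Adm*, which encodes the vasodilator adrenomedullin, had under 1 CPM in both libraries, at 0.21 and 0.41.

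Among genes of mitochondria and stress, the related mitophagy receptors *Bnip3* and *Bnip3l* differed in opposite directions. *Bnip3* was at 24.7 (23.6 to 25.8) CPM in WT and 41.1 (39.3 to 43) CPM in the CD40 KO-labelled library (0.74), and *Bnip3l* at 123 (120 to 125) and 85.7 (83.1 to 88.4) CPM (−0.52). *Bnip3* therefore gave 16.7% of the UMIs of the pair in WT and 32.4% in the CD40 KO-labelled library. *Higd1a*, a respiratory chain protein induced by low oxygen, fell just inside the limit at 82.8 and 107 CPM (0.37). *Ddit4*, an inhibitor of mTORC1, was under the floor of measurement at 2.43 and 6.44 CPM. Of the remaining responders *Ndrg1*, a stress-responsive protein, was at 76.2 and 124 CPM (0.70), *Ero1l*, the oxidase that drives disulfide formation in the endoplasmic reticulum, at 38.4 and 55.5 CPM (0.53), and *P4ha1*, a collagen prolyl hydroxylase subunit, at 67.0 and 78.6 CPM (0.23). *P4ha2* and *Ankrd37* were not measured, with at most 7.74 CPM.

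HIF binds a short core that has ACGTG among its forms. The 250 bases before each RefSeq start (GRCm38.p6, the mm10 assembly) were searched for ACGTG on both strands, where the reverse strand reads CACGT. The form GCGTG was not searched, and core below means ACGTG only. RefSeq promoters were matched for 33 of the 36 members, with *Ero1l* matched under its other symbol, *Ero1a*. A gene was counted if any of its promoters held the core. The core was found in 20 of these 33 genes (60.6%), against 27.3% of genes measured in the class. It was found in 22 of their 45 promoters (48.9%), against 23.4% of promoters of measured genes and 16.6% of all 32851 promoters. By ratio it was present in 8 of 10 higher members, in 2 of 2 lower ones, in 6 of 16 within the limit and in 4 of 5 not measured. Over all measured genes the share was 27.8% of the higher, 27.0% of the lower and 27.2% of those within the limit. The median GC content of all promoters was 52.4%, that of measured genes 60.4% and that of members 62.8%. Among members it was 66.4% for the higher, 55.6% for the lower, 61.6% for those within the limit and 67.6% for those not measured. The members were chosen as glycolysis and hypoxia response genes. The parts of this choice and of GC content in the share were not tested. A match is a description of the letters in the window and not a binding site.

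The 5 promoters shown are those of a transporter, a mitophagy receptor and an enzyme that were higher, of an enzyme that was within the limit but has the most cores, and of the enzyme that was lower. Capitals mark ACGTG or its reverse CACGT, and a run of 6 capitals is the E-box CACGTG, in which both strands match and which other factors also bind. *Slc16a3* (chr11:120948817-120949066, plus strand) has 2 cores, the nearer ending 9 bases before the RefSeq start. *Bnip3* (chr7:138909507-138909756, minus strand) has 2, both in 1 E-box. *Pgk1* (chrX:106186850-106187099, plus strand) has 2 in opposite orientation. *Ldha* (chr7:46845554-46845803, plus strand) has 5, among them 2 E-boxes, and *Pgam1* (chr19:41911621-41911870, plus strand) has 1, although its level differed in the other direction. Of genes with several RefSeq promoters, the one with the most cores is shown. The other promoter of *Ldha* (chr7:46846832-46847081) has 0. In GENCODE vM21 *Slc16a3* begins at 120948480 and *Ldha* at 46841475, so their windows lie inside the genes of that annotation. Each promoter is written 5′ to 3′ on the gene's strand.
Slc16a3: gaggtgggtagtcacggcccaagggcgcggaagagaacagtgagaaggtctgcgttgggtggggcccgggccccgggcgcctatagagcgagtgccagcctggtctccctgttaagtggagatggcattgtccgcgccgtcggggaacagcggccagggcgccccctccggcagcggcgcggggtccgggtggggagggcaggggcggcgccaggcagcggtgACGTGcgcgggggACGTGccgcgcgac
Bnip3: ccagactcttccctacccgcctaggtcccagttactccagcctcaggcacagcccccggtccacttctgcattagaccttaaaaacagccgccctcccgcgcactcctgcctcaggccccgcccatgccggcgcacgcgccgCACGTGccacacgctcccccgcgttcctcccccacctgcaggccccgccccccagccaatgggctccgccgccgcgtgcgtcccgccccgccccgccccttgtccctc
Pgk1: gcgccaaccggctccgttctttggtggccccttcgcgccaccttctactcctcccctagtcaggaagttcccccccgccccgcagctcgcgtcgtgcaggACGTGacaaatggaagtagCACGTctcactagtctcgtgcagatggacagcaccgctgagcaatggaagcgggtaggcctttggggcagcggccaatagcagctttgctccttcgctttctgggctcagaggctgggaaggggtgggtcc
Ldha: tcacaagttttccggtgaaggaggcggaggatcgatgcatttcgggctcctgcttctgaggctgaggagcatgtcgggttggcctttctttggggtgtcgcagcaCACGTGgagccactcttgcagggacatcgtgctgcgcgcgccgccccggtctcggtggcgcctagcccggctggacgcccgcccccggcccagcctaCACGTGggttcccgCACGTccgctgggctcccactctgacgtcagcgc
Pgam1: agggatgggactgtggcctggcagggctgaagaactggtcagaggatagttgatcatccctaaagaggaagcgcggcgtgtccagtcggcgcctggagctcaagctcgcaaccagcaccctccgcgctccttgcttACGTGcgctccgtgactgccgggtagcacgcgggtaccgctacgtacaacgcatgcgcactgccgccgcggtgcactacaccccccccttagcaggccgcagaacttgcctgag

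Within single clusters of the class, *Vegfa*, *Slc16a3*, *Hk2* and *Mif* were at least 1.3-fold higher in the CD40 KO-labelled library in all 5 clusters, as were 4.04% of all genes measured in the class. *Vegfa* was at 83.7 and 221 CPM in cluster 3, at 120 and 260 in cluster 4, at 49.7 and 122 in cluster 1 (led by *Scin* and *Mrc1*), at 84.1 and 262 in cluster 5 (led by the interferon-response genes *Ifit3* and *Rsad2*) and at 38.6 and 127 in cluster 2 (led by the cell cycle genes *Top2a* and *Pclaf*). Its log2 ratios ran from 1.12 to 1.71, and the highest WT cluster (120 CPM) was about level with the lowest of the CD40 KO-labelled library (122 CPM). *Slc16a3* ran from 0.91 to 1.32 and *Hk2* from 0.44 to 0.58. *Mif* ran from 0.48 in cluster 4 to 0.93 in cluster 2.

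The counts of higher and lower members were 11 and 1 of 30 in cluster 1 (15% and 11.9% of all measured genes), 8 and 3 of 30 in cluster 2 (22.0% and 11.6%), and 11 and 0 of 30 in cluster 3 (15.4% and 7.17%). In cluster 4 they were 10 and 1 of 31 (14.0% and 11.9%) and in cluster 5 10 and 2 of 30 (21.9% and 13.8%). The members' median log2 ratio lay between 0.22 and 0.30 in the 5 clusters, against 0.0016 to 0.085 for all measured genes. Of the 30 members measured in the class, 17 were above 0 in all 5 clusters, against 29.5% of all genes measured in the class, and 2, *Pgam1* and *Egln1*, were below 0 in all 5, against 19.8%. All 5 comparisons share the same 2 libraries. *Pgam1* passed the limit in 4 clusters, with log2 ratios from −0.37 in cluster 3 to −0.69 in cluster 5.

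The calls of some other members changed with the cluster makeup. *Hk3* was lower by the limit only in cluster 2 (−0.71) and lay between −0.17 and 0.01 in the other 4. *Bnip3l* likewise passed only in cluster 2 (−0.58), with values from −0.26 to 0.04 elsewhere. With every cluster given the same share in both libraries, *Hk3* was at −0.11 and *Bnip3l* at −0.17, so both calls were lost, and *Hif1a* was at 0.41 in place of 0.62. Within clusters *Hif1a* ranged from 0.19 in cluster 2 to 0.46 in cluster 4, and it passed the limit in only 2 clusters, 4 and 5. *Slc2a1* was at 0.33 with equal cluster shares, inside the limit.

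**Figure D3:**
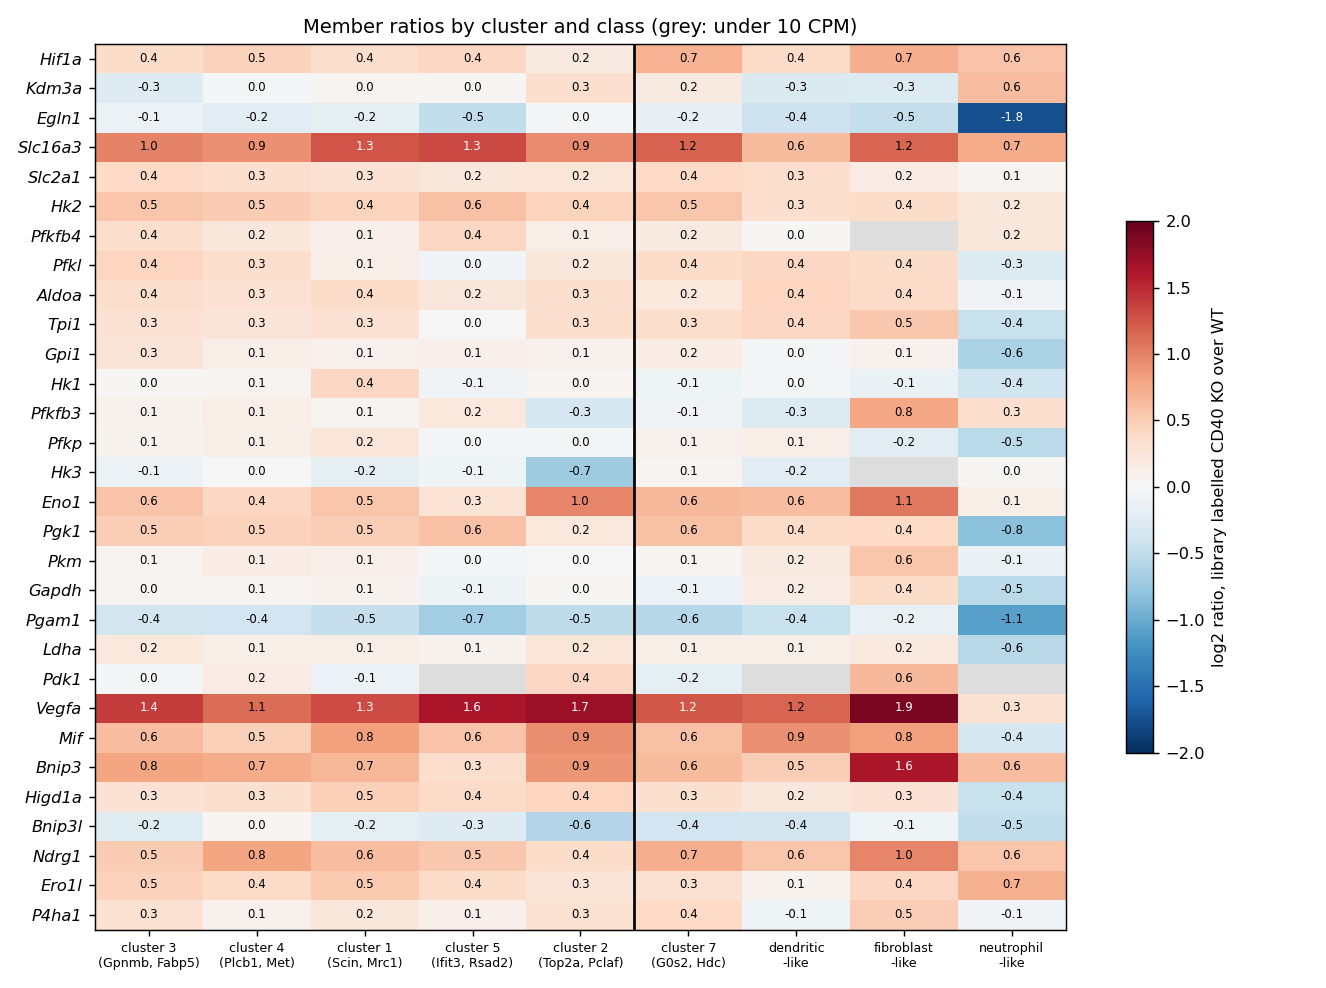
Log2 ratio of CPM, CD40 KO-labelled library over WT, for each member (vertical axis) in the clusters of the class and in other cell types (horizontal axis), with colours limited to ±2. *Vegfa* and *Slc16a3* are above 0 in every cluster of the class, and *Pgam1* below 0, whereas *Bnip3l* and *Hk3* pass the 1.3-fold limit only in cluster 2 of the class.

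The clusters differed from one another within each library too, and 18 of 30 members were highest in the same cluster in both, a share near the 64.9% of all genes measured in the class. Cluster 4, whose leading genes include *Ly6c2* of inflammatory monocytes, was highest for *Hif1a*, *Slc2a1*, *Slc16a3* and *Ero1l*. *Hif1a* stood there at 376 (366 to 386) CPM in WT and 518 (508 to 527) CPM in the CD40 KO-labelled library, and next came cluster 5 at 290 and 385 CPM. Cluster 5 was highest for *Hk2*, *Hk3*, *Kdm3a*, *Pfkfb3* and *Pfkfb4*, with *Pfkfb3* at 76.8 (69.0 to 85.3) and 88.9 (78.4 to 100) CPM against 27.8 and 22.0 CPM in the cycling cluster 2. The cycling cluster was in turn highest for *Ldha*, *Mif*, *Tpi1* and *Higd1a*. Cluster 3 was highest for *Aldoa*, *Bnip3l*, *Pfkl*, *Pgam1* and *Pkm*, and cluster 1 for no member. In *Ldha* the margin of cluster 2 was small in WT, at 383 (368 to 398) CPM against 356 (346 to 366) CPM in cluster 4.

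Set directly against cluster 3, cluster 4 had 6 of 30 members at least 1.3-fold higher and 4 lower in WT (22.6% and 12.1% of all measured genes), and 6 and 4 of 31 in the CD40 KO-labelled library (20.6% and 14.8%). These shares are near those of all genes. The same 3 members were higher in both libraries, against 16.2% of all 7184 genes measured in both. They were *Slc16a3* with log2 differences of 1.17 and 1.08, *Hif1a* with 0.63 and 0.73, and *Pfkfb3* with 0.42 and 0.47. Lower in both, as were 9.09% of those genes, were *Bnip3l* (−1.12 and −0.84), *Hk3* (−0.85 and −0.73) and *Pgam1* (−0.56 and −0.59). *Bnip3l* was at 162 CPM in cluster 3 and 74.5 CPM in cluster 4 of WT, and at 137 and 76.5 CPM in the CD40 KO-labelled library. Of the 30 members measured in both, 26 had the same sign, near the 84.0% of all 7184 genes measured in both. The endothelial marker list, led by *Fabp4*, summed to 701 and 293 CPM in cluster 3 and to 83.3 and 59.9 CPM in cluster 4, and its part in these differences was not tested.

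**Figure D4:**
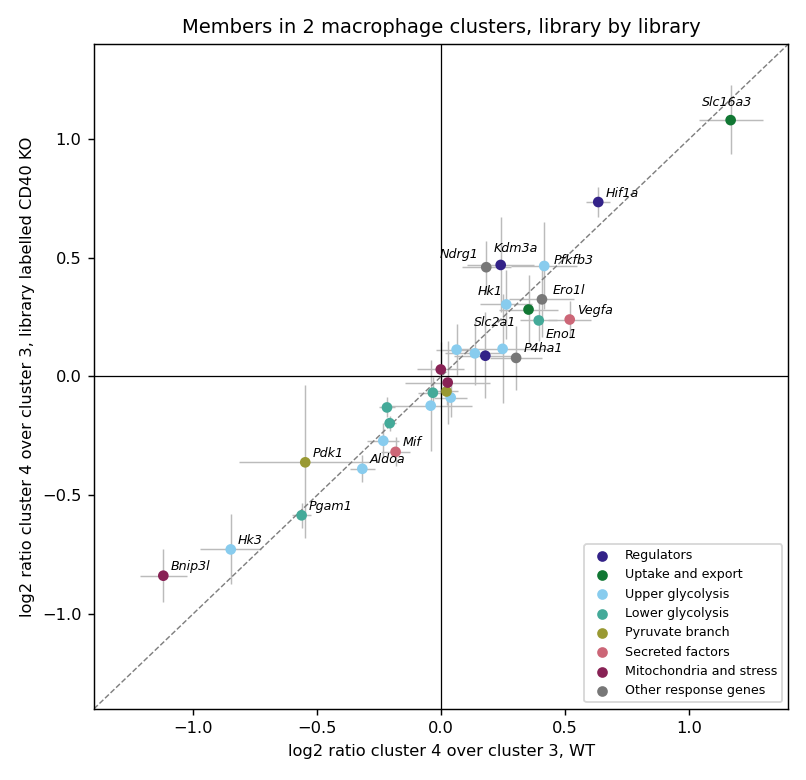
Log2 difference of CPM between cluster 4 and cluster 3 in WT (horizontal axis) and in the CD40 KO-labelled library (vertical axis), 1 point per member. *Slc16a3* and *Hif1a* lie at the upper right, *Bnip3l*, *Hk3* and *Pgam1* at the lower left, and 26 of 30 members have the same sign on both axes, against 84.0% of all genes measured in both.

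The share of barcodes with at least 1 UMI was compared after each barcode had been thinned to 3000 UMIs, which left out 151 shallower barcodes in WT and 53 in the CD40 KO-labelled library. *Vegfa* was then seen in 19.3% of class barcodes in WT and 39.2% in the CD40 KO-labelled library, and its positive barcodes held a mean of 1.35 and 1.81 UMIs. *Slc16a3* was seen in 9.73% and 21.5%, *Hif1a* in 51.2% and 63.8%, and *Pgam1* in 76.7% and 61.8%. Without thinning the shares were 44% and 75.7% for *Vegfa*, 30.6% and 62.3% for *Slc16a3*, 86.2% and 94.5% for *Hif1a*, and 93.7% and 91.5% for *Pgam1*, at median depths of 11766 and 15347 UMIs. In WT endothelial-like barcodes, thinned alike from a median of 5836 UMIs, *Vegfa* was seen in 2.53% (0.69 to 6.35) and *Slc16a3* in 1.90% (0.39 to 5.45). Pooled B-like and T-like or NK-like barcodes had median depths of 3820 and 5348 UMIs. Of these, *Vegfa* was seen in 5 of 50 thinned barcodes in WT (10.0%, 3.33 to 21.8). In the CD40 KO-labelled library it was seen in 6 of 22 (27.3%, 10.7 to 50.2). *Slc16a3* was seen in 0 of 50 and 0 of 22, with upper Clopper-Pearson bounds of 7.11% and 15.4%. Whether the *Vegfa* UMIs came from these cells themselves was not tested. In both libraries the interval of *Vegfa* in these barcodes includes the share of the class. From few barcodes, the class was thus not shown to stand above them in the share of barcodes with a UMI.

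Outside the class, the higher level of *Vegfa* was also seen in dendritic-like barcodes (64.6 CPM in WT and 145 in the CD40 KO-labelled library), in fibroblast-like barcodes (54.3 and 200 CPM) and in the unnamed cluster 7 (101 and 240 CPM), which was led by *G0s2* and *Hdc* and had 7 neutrophil markers, among them *S100a8* and *S100a9*, in its top 10 genes. Neutrophil-like barcodes held 167 and 206 CPM, with a log2 ratio of 0.30 whose counting interval ran from −0.24 to 0.82. *Slc16a3* was higher in all 4, with log2 ratios of 0.64, 1.17, 1.18 and 0.75. In total 10 members were higher and 2 lower of 29 in dendritic-like barcodes (11.9% and 15.7% of all measured genes), 15 and 1 of 31 in fibroblast-like ones (16.3% and 28.9%), 12 and 2 of 32 in cluster 7 (21.9% and 13.5%), and 7 and 12 of 33 in neutrophil-like ones (27.9% and 35.5%). The neutrophil-like values rest on 767018 and 199465 UMIs in all. There *Pgam1* was at 297 and 140 CPM (−1.08, −1.70 to −0.51).

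*Vegfa* was also higher in further barcode types outside the class. T-like or NK-like barcodes held it at 32.0 CPM (7 UMIs) in WT and 233 CPM (32 UMIs) in the CD40 KO-labelled library (2.87, 1.66 to 4.29), B-like ones at 8.39 CPM (1 UMI) and 130 CPM (17 UMIs; 3.96, 1.28 to 9.34), and endothelial-like ones at 11.8 and 33.1 CPM (23 and 5 UMIs; 1.49, −0.27 to 2.91). The shallow cluster 6 held 62.9 and 150 CPM. The macrophage markers summed to 1191 CPM in WT and 4801 CPM in the other library in T-like or NK-like barcodes, with 16 and 20 of 20 present, and to 1318 and 10196 CPM in B-like ones, with 14 and 20 present. Macrophage RNA in barcodes of other types thus moved with the comparison, and its part in the ratios outside the class was not tested.

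Cluster 12, led by *Crip1* and *Mt1*, lay almost wholly in the CD40 KO-labelled library, and its WT values rest on 15 barcodes with 173780 UMIs. *Vegfa* was at 69.1 CPM in WT, from 12 UMIs, and at 146 CPM in the CD40 KO-labelled library, a log2 ratio of 1.08 (0.27 to 2.03). *Mif* was at 247 and 716 CPM (1.53, 1.10 to 2.0), the higher value lying above every cluster of the class in either library, and *Pgam1* at 650 and 480 CPM (−0.44, −0.71 to −0.16). With all kept barcodes of each library pooled, cluster 12 included, the members' median log2 ratio was 0.32. Fewer cells of a type and less RNA per cell cannot be told apart in such a pooled sum.

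The mix of isoforms differed between cell types. Shares were taken among members only, so other hexokinase and glucose transporter genes are left out. Among UMIs of *Hk1*, *Hk2* and *Hk3*, *Hk3* gave 36.3% (35.5 to 37.1) in the WT class and 25.4% (24.5 to 26.3) in the CD40 KO-labelled library. *Hk2* gave 28.3% (27.5 to 29.0) and 38.0% (37.0 to 39.0). Fibroblast-like barcodes used *Hk2* almost alone, at 80.6% and 84.2% of hexokinase UMIs, and WT endothelial-like barcodes used *Hk1*, at 89.9%. These are shares of counted UMIs, and whether gene length bears on them was not tested. Among UMIs of *Slc2a1* and *Slc2a3*, *Slc2a3* gave 5.58% and 6.10% in the class but 52.9% (44.8 to 60.9) and 61.5% (47.0 to 74.7) in neutrophil-like barcodes.

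**Figure D5:**
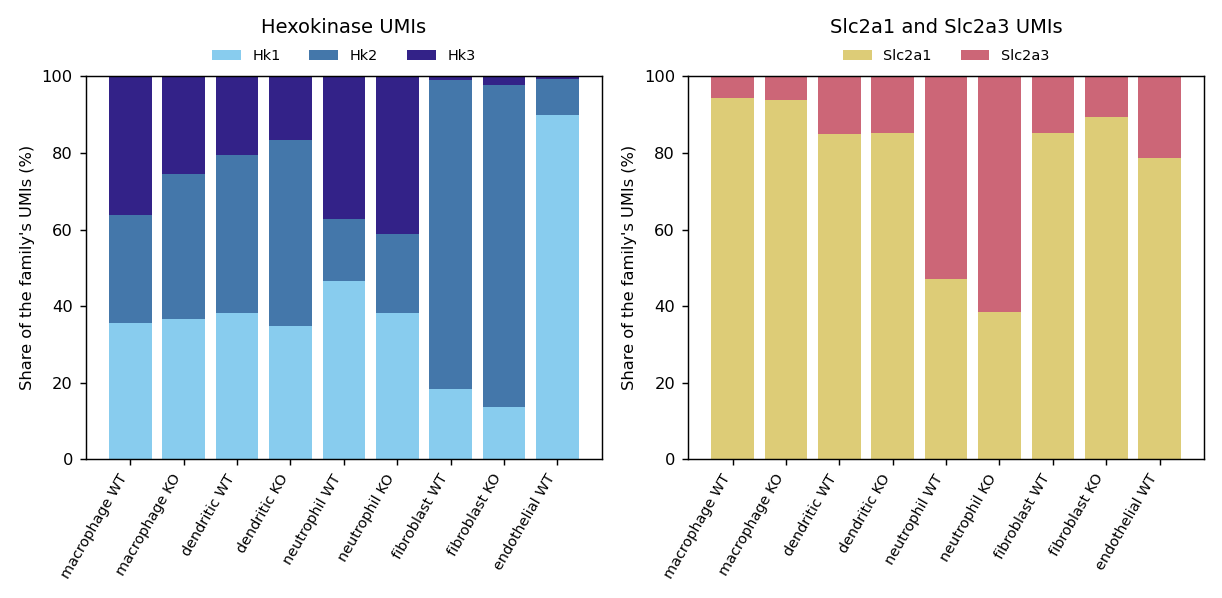
Share of UMIs (percent) given by each gene among *Hk1*, *Hk2* and *Hk3* (left) and among *Slc2a1* and *Slc2a3* (right) in the class and other cell types of each library. *Hk2* dominates in fibroblast-like barcodes (80.6% and 84.2%), *Hk1* in WT endothelial-like barcodes (89.9%), and *Slc2a3* is largest in neutrophil-like ones.

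Some members scarce in the class were at higher levels in other cells. Here a gene was measured if its mean over the cell type and the class reached 10 CPM. Members scarce in the class thus entered these counts through their level in the other cells. Their place among the higher ones was set by that rule, which also holds for the shares of all genes. Against the class of the same library, neutrophil-like barcodes had 11 members at least 1.3-fold higher and 11 lower of 34 in WT (30% and 45.3% of all measured genes) and 10 and 17 of 33 in the CD40 KO-labelled library (29.8% and 49.8%). *Slc2a3* was at 108 and 160 CPM there, log2 differences of 5.25 and 5.24 over the class, and *Slc16a3* at 215 and 361 CPM (2.69 and 2.06). *Tpi1* and *Pgam1* were the reverse, with *Tpi1* at −1.28 and −1.95. Fibroblast-like barcodes had 9 higher and 14 lower of 33 in WT (45.1% and 27.0%) and 8 and 8 of 34 in the CD40 KO-labelled library (32.3% and 34.9%). They held more *P4ha2* (62.7 and 67.4 CPM) and *Hk2* (196 and 253 CPM) than any other cell type of the same library, but almost no *Hk3*, at 2.50 and 6.65 CPM. *Adm* was at 37.2 and 38.0 CPM in fibroblast-like barcodes and at 57.5 (47.4 to 69.2) CPM in WT endothelial-like ones, where *Ddit4* reached 71.9 CPM and *Ankrd37* 35.9 CPM. The WT endothelial-like barcodes had 11 higher and 14 lower of 35 (45.4% and 24.5%), and *Vegfa* was low there at 11.8 CPM. Dendritic-like barcodes had 2 higher and 12 lower of 30 in WT (22.1% and 18.3%) and 1 and 19 of 31 in the CD40 KO-labelled library (13% and 21.3%), with *Pfkp* higher in both at 235 and 259 CPM. In the class itself the fibroblast marker list summed to 16.8 and 38.3 CPM and the endothelial list to 440 and 110 CPM, and their part in the ratios of *Adm*, *P4ha2* and *Ddit4* was not tested.

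Genes of neighbouring pathways were read in the same comparison, where 20.2% of all measured genes were higher and 10.5% lower. Most of these lists are short, and their counts were not tested against those shares. Of 24 other glycolysis genes 7 were measured in the class, 1 higher and 1 lower: *Gpd2*, the mitochondrial glycerol phosphate dehydrogenase, was at 78.3 and 139 CPM (0.83), and *Slc16a7*, a monocarboxylate transporter, at −0.59. *Adpgk*, an ADP-dependent glucokinase, stood at 0.37 and *Gpd1l* at −0.08. Of 35 other hypoxia genes 21 were measured, 3 higher and 5 lower, with a median log2 ratio of 0.03. Among the higher ones were *Mxi1*, a Myc antagonist, at 185 and 379 CPM (1.04), and *Bhlhe40* (0.43), whereas *Zfp395* was at 17.7 and 6.31 CPM (−1.49) and *Slc6a8*, the creatine transporter, at −0.72. The other lower ones were *Plin2* (−0.51), *Bhlhe41* (−0.45) and *Hmox1* (−0.41).

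In the pentose phosphate pathway, 1 of 7 measured genes was higher and none lower. It was *G6pdx*, the entry enzyme, at 0.43, and the next highest, *Pgd*, was at 0.10, with *Taldo1* (−0.27) and *Pgls* (−0.19) at the lower end. Of 23 measured genes of pyruvate oxidation and the citric acid cycle, none was higher and 3 were lower: *Suclg1*, a succinyl-CoA ligase subunit, at −0.54, *Idh2*, the mitochondrial NADP-dependent isocitrate dehydrogenase, at −0.50, and *Mpc1*, a subunit of the mitochondrial pyruvate carrier, at −0.48. The highest were *Dlst* (0.25) and *Idh3a* (0.23), and the list's median was −0.09. Of 6 measured glycogen genes none was higher and 1 was lower, *Gyg*, glycogenin, at −0.56. *Gbe1*, the branching enzyme, stood at 0.19 and *Ugp2* at −0.20. The shares of all measured genes in this comparison are the 20.2% and 10.5% given for the members.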

How the data were processed

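Per the file headers, the authors counted with Cell Ranger 7.0.1 and deposited the UMI counts unnormalized. The kit was Chromium 3′ v3 per the labels' protocols, and the build mm10 per the submitters' processing notes, which also name STAR. The sources used here do not state whether intron reads counted. Filters required 1000 UMIs, 500 genes and a mitochondrial share of at most 10%. Scrublet (scanpy 1.11.5) was run per library on the deposited barcodes, and the highest scores were removed at 0.8% per 1000 barcodes, 903 in WT and 531 in the other library. Barcodes scaled to 10000 counts were clustered with Leiden at resolution 0.6 (2000 variable genes, 30 components, 15 neighbours), without members, other pathway genes, *Cd40*, sex-linked, mitochondrial, ribosomal and haemoglobin genes. Clusters were named by hand from marker lists after their leading genes were seen, and 3 of the 14 stayed unnamed: clusters 6, 7 and 12. Other clusterings were named through these names.

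Raw counts were summed per cell type and library and scaled to CPM (per 1000000). Intervals are exact 95% Poisson, conditional binomial and Clopper-Pearson intervals (scipy 1.17.1). Genes with a mean of 10 CPM were measured, and a 1.3-fold ratio was the limit. Scripts were tested on simulated data. The members, lists and tests were chosen with earlier results of these data known. Named genes are all 36 members and the 2 highest and 2 lowest measured genes of each other list, except 2 genes that are not reported here. *Bhlhe40*, *Plin2*, *Bhlhe41*, *Hmox1*, *Mpc1* and the genes that lead clusters were chosen after seeing their values. A second gene entry named *Aldoa*, with 8 and 1 UMIs in the class, was left out. Promoter sequences are from RefSeq, build GRCm38.p6. Alternatives changed scaling, weights, filters, doublet removal, depth, clustering and limits.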

Additional observations from a re-analysis of the deposited data

Results flagged for a closer look

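*Pgk1* differed between cell types in the direction of its ratio. In neutrophil-like barcodes it was at 133 (108 to 161) CPM in WT and 75.2 (42.1 to 124) CPM in the CD40 KO-labelled library, a log2 ratio of −0.82 (−1.71 to −0.03), whereas in the monocyte/macrophage-like class the ratio was 0.46. In neutrophil-like barcodes 35.5% of all measured genes were at least 1.3-fold lower in the CD40 KO-labelled library, so a lower value there is common. Each group is 1 library, the lower value rests on 15 UMIs, and the difference between the cell types was not tested.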

How the results depend on the processing

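Of the 14 members past the 1.3-fold limit, all 14 kept their direction and 9 kept their call under the 13 alternatives that give each member a value, 2 of which were chosen after seeing the data: adding cluster 7 to the class, and leaving cluster 12 out of a per-barcode marker gate. The members' median log2 ratio was 0.13 under median-of-ratios scaling and 0.32 over all kept barcodes. With cluster shares made equal 1 member was lower. With a fold limit of 1.5, 7 members were higher and 0 lower, against 8.96% and 3.48% of all measured genes. Under the other settings 9 to 13 members were higher and 2 to 3 lower, with medians from 0.22 to 0.26. For equal cluster shares and these other settings, the shares of all measured genes are not given here. The counts there thus do not show whether members stood out from all genes. Calls were lost for *Hk3* under 8 alternatives (−0.38 to −0.11 there), for *Slc2a1* under 4 (0.32 to 0.35 there), for *Pgk1* under median-of-ratios scaling (0.36), for *Bnip3l* with equal cluster shares (−0.17) and for *Ero1l* over all kept barcodes (0.34). *Higd1a* passed the limit under 5 (0.38 to 0.50 there). *Vegfa* stayed between 1.26 and 1.56 and *Slc16a3* between 0.99 and 1.38. Of the 1788 barcodes that the marker gate took in the CD40 KO-labelled library, 814 were of cluster 12. No paired analysis was possible because each group has 1 library. Depth limits the members under 10 CPM and the cell types with few UMIs.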
